A study of Homo sapiens with 2 samples.

Results

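The BCL2 family genes described here are 10 regulators of mitochondrial apoptosis. They are the pro-survival genes BCL2L1 and MCL1, the effectors BAX and BAK1, and the BH3-only genes BAD, BID, BIK, BCL2L11, BBC3 and PMAIP1. They were chosen by name, as all probes that the probe annotation assigns to one of these symbols, which gave 10 of 18774 named genes and 16 of 48701 probes. The cells were MDA-MB-231, a human breast cancer line that the labels call highly invasive. One culture was transfected with an siRNA at 20 nM against NSD3L, the longer product of the histone methyltransferase gene NSD3, and the other with a nonspecific control siRNA whose concentration the labels used here do not give. Both received their siRNA again after 48 h and were collected another 48 h later, and RNA of each culture was read on 1 Illumina beadchip. With 1 array per group there is no replicate error and no test, and the number of arrays limits the precision of every value.

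Cell death by the mitochondrial route is set by contacts between BCL2 family proteins. Pro-survival proteins such as Bcl-xL, from BCL2L1, and Mcl-1 hold the effectors Bax and Bak in check. BH3-only proteins either occupy the groove of the pro-survival proteins or activate the effectors directly, and activated Bax and Bak permeabilise the outer mitochondrial membrane and release cytochrome c. These proteins are controlled in large part after transcription, Bad by phosphorylation, Bid by caspase cleavage and Mcl-1 by rapid turnover, and none of these steps is read by a transcript array.

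Values below are the authors' deposited linear intensities, and log2 ratios of NSD3L siRNA over control siRNA. A floor at the upper edge of the background lay at 40.9 on the NSD3L siRNA array and at 41.0 on the control array. Of the 16 probes, 11 were above it on both arrays and 5 on neither. The 11 probes covered 8 of the 10 genes. BIK and BCL2L11 had no probe above the floor. All 3 probes of the targeted gene NSD3 lay near the floor, and each read lower on the NSD3L siRNA array. They read 37.6, 40.8 and 41.6 there and 41.9, 55.3 and 45.0 on the control array, so depletion of the target could not be gauged well. The cell line marker genes VIM, CD44, EGFR, AXL and CAV1 were above the floor on both arrays. Among genes known to be low in this line, ESR1 and PGR were below the floor, while ERBB3, CDH1 and EPCAM were above it. Of the other cell types' markers, COL1A1, COL1A2, DCN, PTPRC and CD3E were below the floor on both arrays. The monocyte gene CD14 read 50.2 on the NSD3L siRNA array and 53.8 on the control array.

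**Figure D1:**
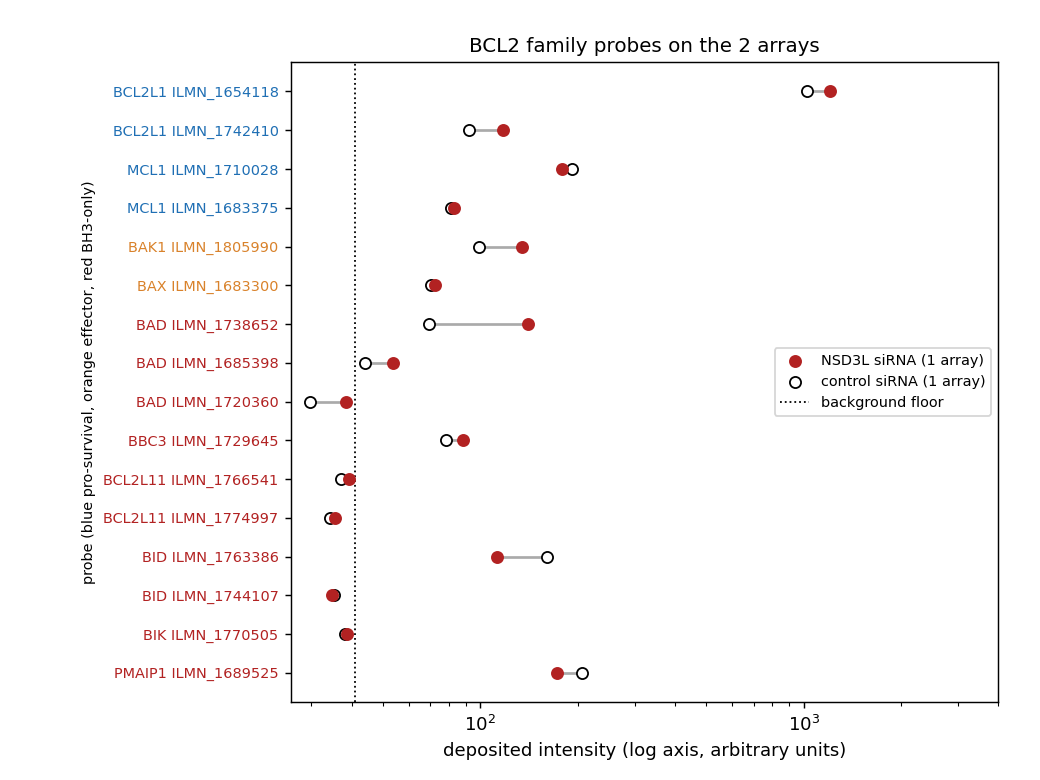
Deposited intensity of every BCL2 family probe (log axis), with the NSD3L siRNA array as filled and the control siRNA array as open circles and the background floor as a dotted line. The 3 BAD probes have the NSD3L siRNA reading to the right, the dimmest of them left of the floor on both arrays. The brighter BID probe has the NSD3L siRNA reading to the left. Both BCL2L11 probes and the BIK probe stay left of the floor.

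The members did not move as a block. BAD was the only one past 2-fold, by 1 probe, and its log2 ratio was under 2-fold with an offset of 16 (0.88), as the mean over its probes (0.65) and with the density trend removed (0.90). BAK1 and BID differed by less in opposite directions, and the remaining measured genes lay within 1.2-fold by their brightest probe. Of the 11 measured probes, 1 was more than 2-fold higher with the NSD3L siRNA and 0 were more than 2-fold lower. Over all 21209 probes above the floor on at least 1 array, 0.207% were more than 2-fold higher and 0.325% more than 2-fold lower. That pool includes probes above the floor on 1 array only, whose ratios are bounds. Over genes measured on both arrays, by brightest probe, the shares were 0.341% and 0.606%. At 1.5-fold, the counts of member probes were again 1 higher and 0 lower. There 2.19% of the pooled probes were higher and 2.35% lower, against 3.63% and 4.06% of genes measured on both arrays. With each gene represented by its brightest probe, 5 members were higher and 3 lower, with a median log2 ratio of 0.11. Over all 10554 genes measured on both arrays the median was -0.004, and the middle 50% of them ran from -0.19 to 0.18.

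The sequences upstream of the genes at both ends of this range are shown to place them. They are the 250 bases before the gene start from RefSeq (GRCh38.p14), 5′ to 3′ on the strand of the gene. They belong to BAD, the highest member, at chr11:64284705-64284954 on the minus strand, to BAK1, the next highest, at chr6:33580277-33580526 on the minus strand, and to BID, the lowest, at chr22:17774470-17774719 on the minus strand. Capitals mark GC boxes (GGGCGG on either strand) and CCAAT boxes (CCAAT on either strand).
BAD: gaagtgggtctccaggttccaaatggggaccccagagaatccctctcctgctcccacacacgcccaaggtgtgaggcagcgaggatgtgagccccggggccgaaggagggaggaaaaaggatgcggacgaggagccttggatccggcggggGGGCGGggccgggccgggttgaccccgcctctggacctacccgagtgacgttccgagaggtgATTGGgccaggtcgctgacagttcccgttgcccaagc
BAK1: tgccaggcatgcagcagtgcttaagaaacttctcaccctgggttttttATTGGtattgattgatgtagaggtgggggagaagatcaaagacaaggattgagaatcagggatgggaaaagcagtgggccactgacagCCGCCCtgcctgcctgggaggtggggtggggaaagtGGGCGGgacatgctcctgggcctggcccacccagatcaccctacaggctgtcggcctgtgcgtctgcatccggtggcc
BID: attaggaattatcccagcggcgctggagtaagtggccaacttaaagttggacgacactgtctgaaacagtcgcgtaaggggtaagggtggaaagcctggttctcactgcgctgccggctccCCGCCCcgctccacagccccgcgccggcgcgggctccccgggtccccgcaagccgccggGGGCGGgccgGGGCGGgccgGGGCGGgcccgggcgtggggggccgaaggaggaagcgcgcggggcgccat
The BAD window held 1 GC box and 1 CCAAT box, the BAK1 window 2 GC boxes and 1 CCAAT box, and the BID window 4 GC boxes and no CCAAT box. The GC content was 66.4% for BAD, 58.0% for BAK1 and 72.0% for BID, against a median of 58.0% over all 35116 RefSeq windows of this length. A GC box was present in 42.6% of all windows and a CCAAT box in 32.0%. Of the 10 members, 8 were matched in the table by symbol, and MCL1 and BIK were not. GC boxes were found in 6 of the 8 and CCAAT boxes in 5. A search for the E-box CACGTG, held by 6.35% of all windows, and for the E2F sequence TTTCCCGC, held by 1.39%, on either strand found no match in the 3 windows printed. The E-box was present in 2 other members, BAX with 4 copies and BBC3 with 1. These matches describe letters in a window, and binding was not measured.

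Among the pro-survival genes, BCL2L1 read slightly higher with the NSD3L siRNA by both of its probes. BCL2L1 gives rise by alternative splicing to Bcl-xL, which protects cells, and to the shorter Bcl-xS, which opposes it. The probe annotated to the Bcl-xS record (NM_001191, ILMN_1654118) read 1202 on the NSD3L siRNA array and 1025 on the control array, a log2 ratio of 0.23. The probe annotated to the Bcl-xL record (NM_138578, ILMN_1742410) read 118 on the NSD3L siRNA array and 92.2 on the control array, a log2 ratio of 0.35. The ratios of the 2 probes differed by 0.12, and neither reached 1.3-fold. The annotation names a record for each probe, and whether a probe reads one splice form alone was not established, so the isoforms cannot be ranked from these readings.

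MCL1, whose protein is short-lived and restrains Bak, had nearly the same reading on both arrays. The probe annotated to the long-form record (NM_021960, ILMN_1710028) read 178 in NSD3L siRNA cells and 191 in control siRNA cells, a log2 ratio of -0.10. The probe annotated to the short-form record (NM_182763, ILMN_1683375) read 83.1 in NSD3L siRNA cells and 80.9 in control siRNA cells, a log2 ratio of 0.04. The probes thus had opposite signs, both close to 0. Among the 1651 probes in the brightness group of each, 79.0% and 90.1% had a log2 ratio at least as far from 0.

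The effectors both read higher, one of them barely. BAK1, which encodes the effector that resides in the outer mitochondrial membrane, read 134 in NSD3L siRNA cells and 98.7 in control siRNA cells. Its log2 ratio was 0.45, or 1.36-fold higher, and 19.9% of similarly bright probes lay at least as far from 0. BAX, whose protein moves from the cytosol to mitochondria on activation, read 72.3 in NSD3L siRNA cells and 70.5 in control siRNA cells, a log2 ratio of 0.04 that became -0.11 once the trend with gene density was removed. Each effector gene was represented by 1 probe, so agreement between probes cannot be judged. The BAX probe is annotated to NM_004324, and which splice forms it reads was not established.

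**Figure D2:**
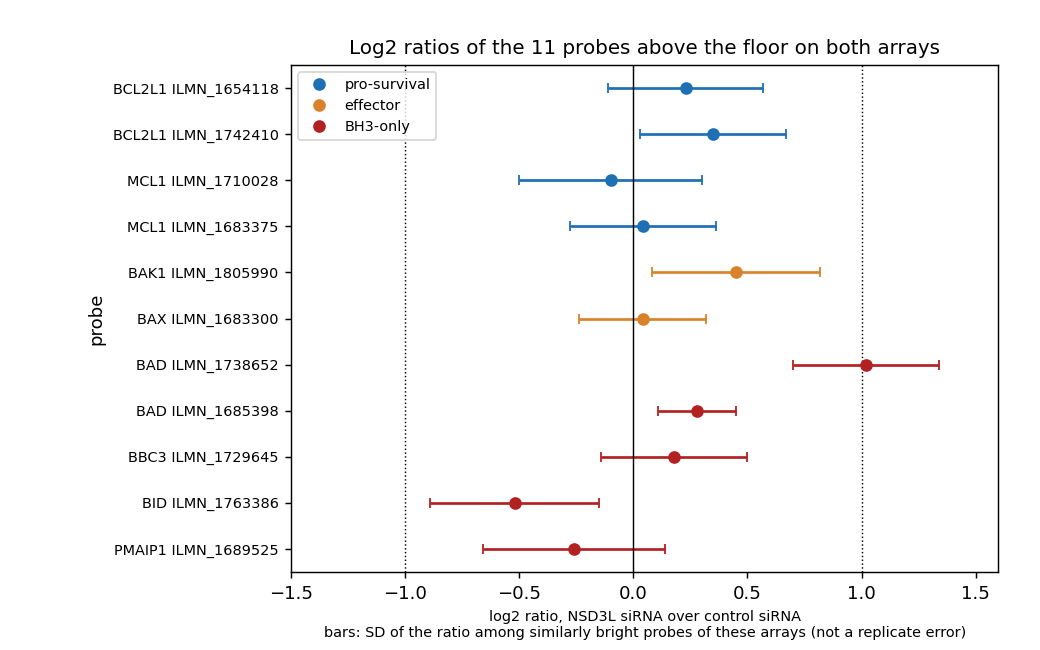
Log2 ratio of NSD3L siRNA over control siRNA for the 11 probes that both arrays had above the floor, coloured by role, with dotted lines at 2-fold. Bars are the SD of the ratio among similarly bright probes on the same arrays, not a replicate error, and only the brighter BAD probe, at 1.02, passes the 2-fold line.

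BAD carried the largest difference of the family. Bad is a BH3-only sensitiser that binds Bcl-xL and Bcl-2, and survival kinases inactivate it by phosphorylation, after which 14-3-3 proteins retain it in the cytosol. The brightest of its 3 probes (ILMN_1738652) read 141 in NSD3L siRNA cells and 69.4 in control siRNA cells. It was 2.03-fold higher, a log2 ratio of 1.02, just past the threshold. By this probe BAD ranked 33rd from the top of 10554 genes, and 0.363% of the 1651 similarly bright probes lay at least as far from 0. The SD of the log2 ratio among those probes was 0.32.

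The other BAD probe measured on both arrays was also higher but did not show a difference of that size. The probe ILMN_1685398, annotated to the same transcript record (NM_032989), read 53.5 in NSD3L siRNA cells and 44.0 in control siRNA cells, a log2 ratio of 0.28. Among similarly bright probes, 8.90% lay at least as far from 0. The probe ILMN_1720360, annotated to NM_004322, read 38.3 in NSD3L siRNA cells and 29.7 in control siRNA cells, below the floor on both arrays, so no fold is given. The most frequent intensity was 34.8 on the NSD3L siRNA array and 34.9 on the control array. How background was handled is not given in the sources used here. With each array's most frequent intensity subtracted, the log2 ratios of the measured BAD probes were 1.62 and 1.04, and their mean without the subtraction was 0.65. The part of the background in the gap between the probes was not tested.

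BID and PMAIP1 were the BH3-only genes that read lower. BID, whose protein links death receptors to mitochondria after cleavage by caspase-8, read 112 in NSD3L siRNA cells and 161 in control siRNA cells. Its log2 ratio was -0.52, or 1.43-fold lower, and 14.4% of similarly bright probes lay at least as far from 0. A further BID probe annotated to the same record (ILMN_1744107) read 34.7 in NSD3L siRNA cells and 35.3 in control siRNA cells, below the floor on both arrays. PMAIP1, which encodes the Mcl-1 antagonist Noxa, read 173 in NSD3L siRNA cells and 207 in control siRNA cells, a log2 ratio of -0.26 that 50.7% of similarly bright probes matched or exceeded in size.

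Among the remaining BH3-only genes, BBC3 was above the floor with a small difference, while BCL2L11 and BIK were below the floor. BBC3, encoding Puma, a protein that binds all main pro-survival members, read 88.5 in NSD3L siRNA cells and 78.1 in control siRNA cells, a log2 ratio of 0.18. BCL2L11, encoding Bim, a direct activator of the effectors, had 2 probes that read 39.2 and 35.5 in NSD3L siRNA cells and 37.1 and 34.2 in control siRNA cells. BIK, whose protein sits at the endoplasmic reticulum, read 38.8 in NSD3L siRNA cells and 38.2 in control siRNA cells. These 3 probes were below the floor on both arrays, so the data hold no measured ratio for Bim or Bik transcripts.

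**Figure D3:**
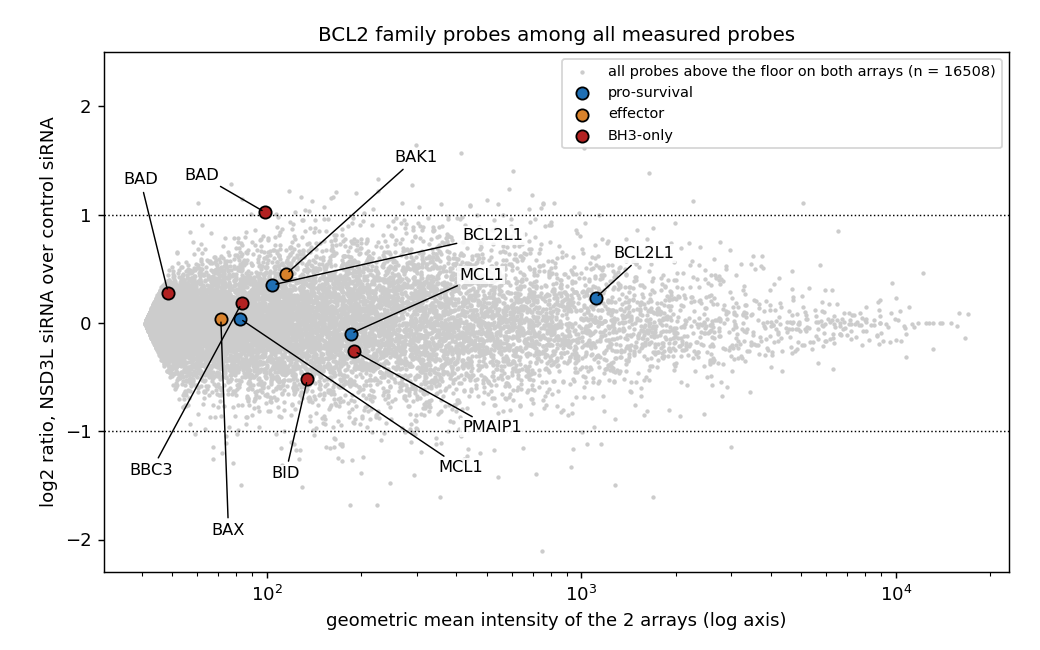
Log2 ratio of NSD3L siRNA over control siRNA against mean intensity (log axis) for the 16508 probes that both arrays had above the floor, in grey, with the 11 BCL2 family probes coloured by role. The brighter BAD probe lies at the upper edge of the grey cloud at its brightness and the other 10 lie inside it.

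Pro-survival and pro-death members overlapped in their ratios. The 6 measured pro-death genes ran from -0.52 for BID to 1.02 for BAD with a median of 0.11, and 4 of them were higher. The 2 pro-survival genes had -0.10 for MCL1 and 0.23 for BCL2L1, with a median of 0.06. The BCL2L1 value is that of its brightest probe, which is annotated to the Bcl-xS record, and the probe annotated to Bcl-xL had 0.35. Once the trend with gene density had been taken out, the medians were 0.00 for the pro-death and -0.03 for the pro-survival genes. Within the BH3-only genes 2 were higher and 2 lower, and the median was -0.04. Set against MCL1, the log2 ratio of BAD was higher by 1.12 and that of BAK1 by 0.55, while that of BID differed by -0.41. Set against BCL2L1, the differences were 0.79 for BAD, 0.22 for BAK1 and -0.75 for BID. No common shift of pro-death over pro-survival transcripts was seen, and with 2 genes on the pro-survival side the medians are only a description.

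The log2 ratios were also taken after a trend with gene density was removed. The size and scatter of that trend are not reported here. Removing it took MCL1, with 31 other protein-coding genes within 500 kb, from -0.10 to -0.22, and PMAIP1, with 2, from -0.26 to -0.14. The neighbours of the members were compared as well, after the data were seen. BAD had 32 other protein-coding genes within 500 kb in the RefSeq annotation (GRCh38.p14), against a median of 11 over all measured genes. Of its 15 measured neighbours 12 read higher, and their median log2 ratio was 0.16. BAK1 had 26 such genes, and 15 of its 19 measured neighbours were higher, with a median of 0.24. BID had 8, and its 3 measured neighbours had a median of -0.07. Around the other members the direction of the neighbours did not always match that of the gene. MCL1, at -0.10, had 13 of 22 measured neighbours higher and a median of 0.12, and the 1 measured neighbour of PMAIP1, itself at -0.26, had 0.04. For BBC3, 9 of 10 neighbours were higher (median 0.16), for BAX 12 of 18 (median 0.07), for BCL2L1 3 of 6 (median 0.03), for the unmeasured BIK 5 of 6 (median 0.27) and for BCL2L11 the only 1, at 0.11. Of all measured genes, 49.2% read higher. With the gene density trend removed, BAD had a log2 ratio of 0.90, BAK1 of 0.35 and BID of -0.44, so the order of the 3 genes was kept and BAD was under 2-fold.

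**Figure D4:**
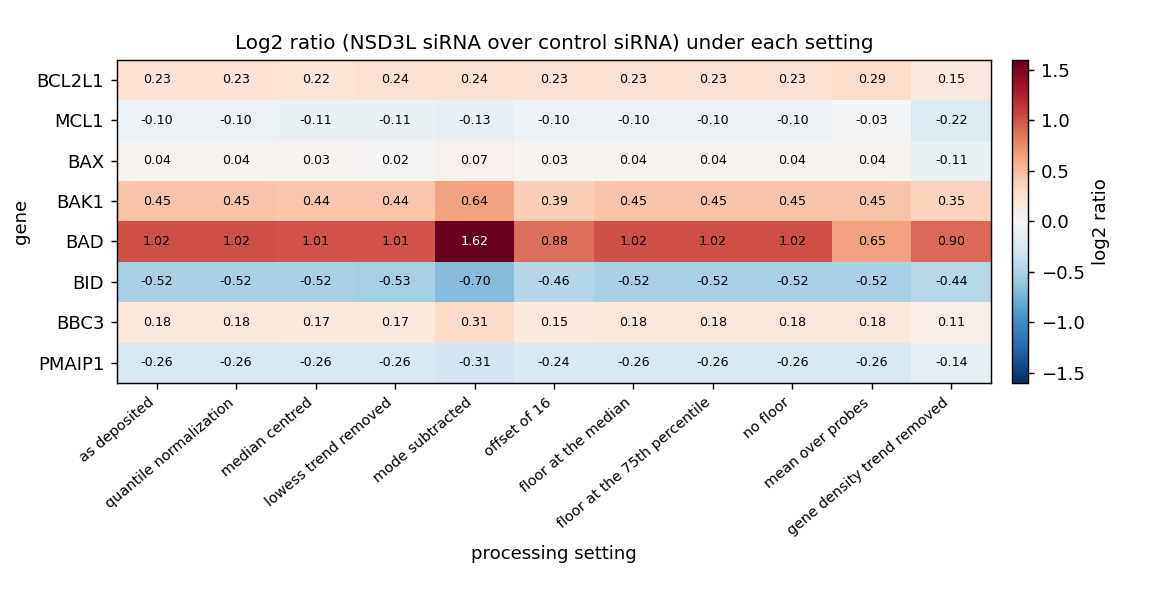
Log2 ratio of NSD3L siRNA over control siRNA for the 8 measured members under each processing setting, as numbers and colour. BAD is the highest in every column, between 0.65 and 1.62, BID is the lowest, between -0.70 and -0.44, and BAX alone changes sign, to -0.11 with the gene density trend removed.

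The wider family also held genes of both directions. Of 16 other BCL2 family genes, 11 were measured on both arrays, 5 higher and 6 lower, with a median log2 ratio of -0.04. One was more than 1.5-fold higher and 1 more than 1.5-fold lower, where 3.63% and 4.06% of all genes were. BCL2L12, whose product counters cell death downstream of mitochondria, read 453 in NSD3L siRNA cells and 250.5 in control siRNA cells, a log2 ratio of 0.85, and its dimmer probe had 0.46. BNIP2, a gene named for a protein that interacts with BCL2, read 235 in NSD3L siRNA cells and 383 in control siRNA cells, a log2 ratio of -0.70.

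The classical pro-survival relatives lay near 0. BCL2 read 110 in NSD3L siRNA cells and 102.5 in control siRNA cells, a log2 ratio of 0.10, with 0.18 for its dimmer probe above the floor. BCL2L2, encoding Bcl-w, had a log2 ratio of -0.10. BCL2A1, encoding the NF-kB target Bfl-1, read 36.1 in NSD3L siRNA cells and 39.6 in control siRNA cells, below the floor on both arrays, as were BCL2L10, BCL2L15 and the BH3-only gene HRK. The effector relative BOK had a log2 ratio of 0.38. The mitophagy receptor genes BNIP3 and BNIP3L, both hypoxia targets, had 0.44 and 0.34. The autophagy gene BECN1, whose protein carries a BH3 domain, had -0.30, BNIP1 -0.37, BCL2L13 -0.07 and BCL2L14 -0.04. The BH3-only gene BMF was above the floor on the control array alone, at 46.1, and its reading was at least 1.13-fold lower with the NSD3L siRNA.

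Genes that act on Bad were examined next, since BAD had the largest difference. Of 7 genes for 14-3-3 proteins, 4 were higher and 3 lower, with a median log2 ratio of 0.11. SFN, encoding 14-3-3 sigma, read 247 in NSD3L siRNA cells and 158 in control siRNA cells, a log2 ratio of 0.65. YWHAH had 0.37, YWHAQ -0.20 and YWHAB -0.16, the last with 0.19 by its dimmer probe. Of 13 Bad kinase and phosphatase genes with a named probe, 10 were measured on both arrays, 6 higher and 4 lower, and the list's median was 0.12. RPS6KB1, encoding the S6 kinase that phosphorylates Bad, read 272 in NSD3L siRNA cells and 665 in control siRNA cells. It was 2.45-fold lower, a log2 ratio of -1.29, where 0.606% of all genes were more than 2-fold lower, and it had 1 probe. PIM1 had 0.44, the phosphatase gene PPP1CA 0.42 and PIM2 0.36. AKT1 had 0.34, and its dimmer probe was above the floor on the control array alone. Of the lower genes, RPS6KA3 had -0.31, with -0.26 and -0.20 by its dimmer probes above the floor, and PPP3CB had -0.21. AKT2 and PIM3 were above the floor on the NSD3L siRNA array alone.

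**Figure D5:**
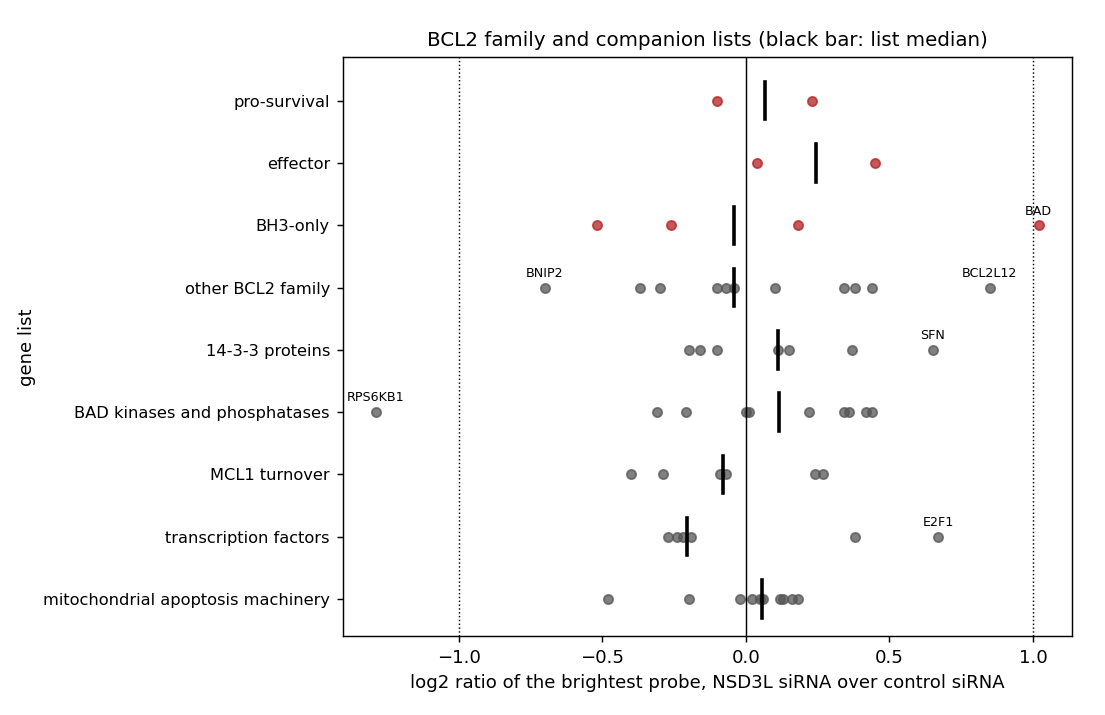
Log2 ratio of NSD3L siRNA over control siRNA for each measured gene (brightest probe) of the BCL2 family roles, in red, and of companion lists, in grey, with list medians as black bars and names for genes past 1.5-fold. The medians lie between -0.20 and 0.24, and RPS6KB1 at -1.29 and BAD at 1.02 are the genes past the dotted 2-fold lines.

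Of the measured genes that control Mcl-1 turnover or the transcription of BH3-only genes, 1 was past 1.5-fold. Over all genes measured on both arrays, 7.68% were past 1.5-fold in either direction, so this count does not set these genes apart. Of 8 turnover genes 6 were measured, 2 higher and 4 lower, with a median log2 ratio of -0.08. The deubiquitinase gene USP9X, which stabilises Mcl-1, had -0.40, and MARCHF5, a mitochondrial ubiquitin ligase gene, had -0.29. GSK3B, a kinase that marks Mcl-1 for destruction, had 0.27, and the ubiquitin ligase gene HUWE1 had 0.24. Of 7 transcription factor genes with a named probe 6 were measured, 2 higher and 4 lower, and their median was -0.20. E2F1, which can induce BH3-only genes, read 132 in NSD3L siRNA cells and 82.9 in control siRNA cells, a log2 ratio of 0.67. STAT3, an activator of BCL2L1 and MCL1, had 0.38. DDIT3 had -0.27 and ATF4 -0.24, the latter with 0.10 by its dimmer probe. Both belong to the stress response that induces PMAIP1 and BBC3. TP73 was below the floor.

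Downstream of the family, the mitochondrial machinery also held genes of both directions. Of the list, 10 genes were measured, 7 higher and 3 lower, with a median log2 ratio of 0.06. None passed 1.5-fold, where 7.68% of all genes did in either direction, so with 10 genes this count does not set the list apart. CYCS, encoding cytochrome c, read 66.9 in NSD3L siRNA cells and 93.0 in control siRNA cells, a log2 ratio of -0.48. CASP9, the initiator caspase gene of this route, had -0.20 by the brighter of its probes and 0.30 by the other. The channel genes VDAC1 and VDAC2 had 0.18 and 0.16, and VDAC2 encodes a partner of Bak. APAF1, of the apoptosome, had 0.06, and the caspase inhibitor gene XIAP 0.05.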

How the data were processed

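The authors deposited linear intensities, 1 for each of 48701 probes on each of the 1-colour Illumina beadchips. The tool was BeadStudio per the submitters' processing notes. The sources used here give neither its version nor how background and normalization were handled. The sorted values of both arrays differed by at most 0.025 on the log2 scale, the pattern quantile normalization leaves. Samples were grouped by the labels' siRNA, and each group was 1 culture and 1 array, which cannot be told apart. The annotation gave 1 symbol for 23687 probes and several for 35, and current symbols were taken from RefSeq by gene number. Its array version was not matched to the one in the series description, and all gene names rest on probe identifiers.

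Log2 ratios were computed without offset or scaling. The floor of each array was 2 times the mode (kernel density peak below the 75th percentile) less the 1st percentile. A probe above it on 1 array got a bound against the floor of the other, and one below on both had no fold. Each gene took the ratio of its brightest probe measured on both arrays. Spread was described by the SD of the ratio in 10 equal groups of probes by mean brightness. The calculation was tested on simulated data with less spread than the measured member probes had and larger changes than theirs. That test does not gauge calls of the size reported here. The software was Python 3.11.15, numpy 2.4.6, pandas 2.3.3, scipy 1.17.1 and statsmodels 0.14.6. The rule named all member and NSD3 probes, the other BCL2 family genes, and, in each companion list, genes past 1.5-fold and up to 4 with the largest ratios. AKT1, AKT2, PIM3, RPS6KA3, PPP3CB, APAF1 and XIAP, along with marker genes and genes without a measured ratio, were named beyond the last part. Some listed genes are not reported here. The members and lists were chosen with earlier results of these data known.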

Additional observations from a re-analysis of the deposited data

How the results depend on the processing

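The number of member probes more than 2-fold higher, 1 as reported, was 2 with each array's mode subtracted, 0 with an offset of 16 and 0 at a 3-fold threshold, and the only probes concerned were those of BAD. The brighter BAD probe had a log2 ratio of 0.88 with the offset and 1.62 with the mode subtracted, and the dimmer one 1.04 with the mode subtracted. Counts of probes more than 2-fold lower stayed at 0 under all settings run. Quantile normalization, a floor at the median and no floor left the ratios of the measured member probes as printed. With the floor at the 75th percentile, the dimmer BAD probe went from 0.28 to a bound of 0.13, and the other ratios were as printed. Centring, lowess, mode subtraction and the offset were the 4 other alternatives run on single probes. Under them, 42 of 44 ratios of member probes stayed within the SD of similarly bright probes, and 0 changed sign. The exceptions were the BAD probes with the mode subtracted. Removing the gene density trend was run on genes and not on single probes, and it took BAX from 0.04 to -0.11. The pro-death median ran from 0.00 (gene density trend removed) to 0.19 (mode subtracted) and the pro-survival median from -0.03 (gene density trend removed) to 0.13 (mean over probes), all within that spread. The cause of these differences was not tested. No paired analysis was possible because each group had 1 array, and for the same reason no replicate could be left out. Probes near the floor limit what can be said of BIK, BCL2L11 and the dimmer BAD and BID probes.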
